A study of Mus musculus with 20 samples.

Results

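The liver RNA of mice given glucagon and T3 joined in a single molecule was set against that of mice given both hormones together. This asks whether linking the 2 hormones in 1 molecule gives another transcript profile than giving them side by side. The libraries are the 4 labelled Cp, called hybrid here, and the 4 labelled Gluc+T3, called combination here, 8 of the 20 libraries of the study. Cp was taken as the hybrid by elimination, since the other 4 treatment labels name control, glucagon, T3 and Gluc+T3. All mice were males kept on a western diet, and the treatments were given daily for 16 days. No source used here says what the controls received. Each library is described as 1 liver from 1 mouse. No source used here gives strain, age, doses or when tissue was taken, so the differences below hold for the treatments as given and not for matched doses of hormone. The control, glucagon and T3 libraries, 4 each, served to estimate the spread and to show what each hormone did alone.

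Glucagon acts on hepatocytes through its receptor Gcgr, a G protein coupled receptor that raises cAMP. Protein kinase A and the transcription factor CREB then switch on genes of glucose production and amino acid breakdown, while genes of glucose use are held down. T3, the active thyroid hormone, enters cells through carriers and binds the nuclear receptors Thra and Thrb, of which Thrb predominates in liver. A peptide that carries T3 is meant to bring it to cells that bear the glucagon receptor.

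Library totals ran from 9858877 to 14897657 counts in the combination and from 8791923 to 17445035 in the hybrid, within a range of 6091917 to 23195658 over all 20. Both groups have 1 library in each of sequencing lanes 1 to 4, and the T3 libraries ran in lane 5. The biological coefficient of variation was 18.9% in the combination and 22.6% in the hybrid, against 43.2% in the controls. Summed hepatocyte marker levels (10 genes, among them Alb and Apoa1) were 116986 to 179534 CPM in the combination and 99498 to 144515 in the hybrid, so the labelled tissue carried its markers in all 8. Summed levels of 20 skeletal muscle genes were 727 CPM in hybrid 4 and 436 in combination 4, against 26.2 to 41.0 in the other 6. Outside the compared groups the sums reached 4265 CPM in glucagon 3 and 1132 in control 2, and both libraries are in the fit of all 20. The 4 measured erythroid genes summed to 41.6 to 66.5 CPM in the hybrid and 70.2 to 138 in the combination, without overlap, and their part in the results was not tested. In whole liver, fewer cells of a type and less RNA per cell cannot be told apart.

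Few genes were called between the 2 treatments in the edgeR fit of all 20 libraries, and all of these were lower with the hybrid. Of 12907 genes tested, 4 were called (Benjamini-Hochberg adjusted p below 0.05 by the quasi-likelihood test of edgeR), which is 0.031% of the genes. Those described here are Arrdc3, an arrestin-domain protein involved in the fate of membrane receptors, 8430408G22Rik (now Depp1), a target of the FOXO factors that is induced in fasting, and Gprin3, a protein that binds G protein alpha subunits. No gene was called higher in this fit. At an unadjusted p under 0.05 there were 891 genes (6.9%), 404 of them higher (3.13%) and 487 lower (3.77%), and DESeq2 called 7 higher and 21 lower. In the 8 libraries fitted alone, edgeR called 3 higher and 13 lower. All 4 genes called with 20 libraries were among the calls of both.

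Changes are given as log2 of hybrid over combination ± SE, and levels as CPM, counts scaled to a common library size with TMM factors. Positions are on GRCm38, and 1 library of each group is from each lane. The p-values in the following paragraphs are from the same test across all genes.

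The sequence before the start site, from a RefSeq promoter table, is shown for the called genes described here, since these genes moved in the same direction. The 250 bases that end just before each RefSeq start (GRCm38.p6) are given 5′ to 3′ on the gene's strand, and capitals mark the only motif found.
Arrdc3 (chr13:80883134-80883383, plus strand): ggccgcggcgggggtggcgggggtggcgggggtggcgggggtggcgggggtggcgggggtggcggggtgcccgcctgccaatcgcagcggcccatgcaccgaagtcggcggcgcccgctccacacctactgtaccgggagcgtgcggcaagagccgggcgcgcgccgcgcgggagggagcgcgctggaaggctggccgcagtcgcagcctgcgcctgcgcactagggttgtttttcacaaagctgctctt
8430408G22Rik (chr6:116650434-116650683, plus strand): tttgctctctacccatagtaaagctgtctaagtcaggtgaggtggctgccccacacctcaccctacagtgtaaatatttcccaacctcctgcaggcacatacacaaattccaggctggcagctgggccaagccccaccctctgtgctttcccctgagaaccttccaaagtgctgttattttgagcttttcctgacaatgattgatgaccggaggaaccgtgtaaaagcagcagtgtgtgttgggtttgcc
Gprin3 (chr6:59426307-59426556, minus strand): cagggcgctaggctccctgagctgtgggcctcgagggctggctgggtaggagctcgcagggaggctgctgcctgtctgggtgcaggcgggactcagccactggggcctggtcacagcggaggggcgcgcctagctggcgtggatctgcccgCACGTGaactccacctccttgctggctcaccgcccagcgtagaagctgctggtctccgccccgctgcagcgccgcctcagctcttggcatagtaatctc

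Both strands of these windows were searched for 5 motifs. CACGTG, the E-box that basic helix-loop-helix factors read, stood at base 152 of the Gprin3 window, and 6.021% of 32851 windows of this length held it. The cAMP response element TGACGTCA (1.546% of windows), its shorter form TGACG (17.77%), which lies within it, the forkhead site TGTTTAC (3.166%) and the nuclear receptor site AGGTCA (14.02%) had no match in the 3 windows. The window of 8430408G22Rik overlaps the start of the gene as GENCODE M21 places it.

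Arrdc3 (13:80883384-80896042, plus strand) had the smallest p of all genes. Its level was 97.2, 107, 146 and 103 CPM in combination 1 to 4 and 27.3, 16.2, 18.8 and 16.2 CPM in hybrid 1 to 4. The groups did not overlap, and the hybrid was lower in 4 of 4 lanes. The change was -2.53 ± 0.30 (95% interval -3.16 to -1.90, adjusted p = 0.000765), a mean level 5.76-fold higher in the combination. Mean levels were 109 CPM in control, 54.8 in T3 and 5.31 in glucagon, so the combination lay near the control and the hybrid between T3 and glucagon. Arrdc3 stayed called with each of the 8 libraries left out in turn (adjusted p 0.00145 to 0.0138).

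8430408G22Rik (6:116650609-116652794, plus strand) was at 49.6, 72.0, 60.0 and 143 CPM in combination 1 to 4 and at 14.95, 3.23, 7.94 and 9.52 CPM in hybrid 1 to 4. Combination 4 was the highest and hybrid 2 the lowest, and the lowest combination library was above the highest hybrid library. The change was -3.18 ± 0.46 (-4.14 to -2.22, adjusted p = 0.00646), 9.08-fold in mean level. Means were 247 CPM in control, 105 in T3 and 8.17 in glucagon. The call ended without hybrid 3 (adjusted p = 0.0622) or hybrid 4 (0.0531).

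Gprin3 (6:59347226-59426294, minus strand) was at 27.0, 15.9, 21.4 and 19.95 CPM in combination 1 to 4 and at 6.80, 7.06, 6.41 and 6.81 CPM in hybrid 1 to 4. The hybrid libraries were within 1 CPM of each other and below all combination libraries. The change was -1.64 ± 0.25 (-2.16 to -1.11, adjusted p = 0.00980), 3.11-fold in mean level. Means were 27.4 CPM in control, 21.0 in T3 and 6.47 in glucagon. The call ended with the lane as a block in 16 libraries (adjusted p = 0.0528), and without hybrid 2 (0.0590), hybrid 3 (0.0622), hybrid 4 (0.0632) or combination 1 (0.0527).

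**Figure D1:**
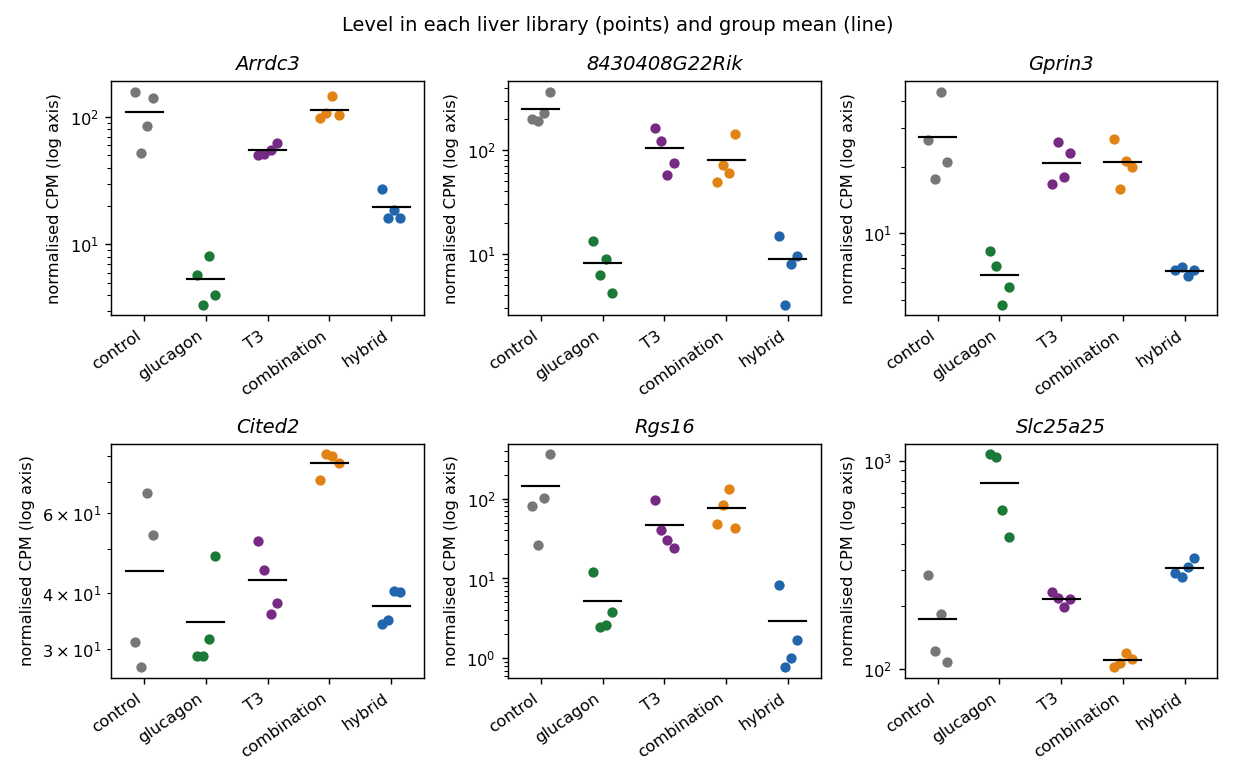
Normalised CPM (log axis) of 6 genes in each of the 20 liver libraries (points), by treatment, with the group mean (line). Arrdc3, 8430408G22Rik, Gprin3, Cited2 and Rgs16 were lower in all 4 hybrid libraries than in any combination library, and Slc25a25 was higher in all 4.

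A pair of genes lay just outside the threshold with separate groups. Rgs16 (1:153740349-153745468, plus strand), which speeds the shut-off of G protein signals, was at 47.6, 82.6, 132 and 43.4 CPM in combination 1 to 4 and at 8.21, 0.767, 0.992 and 1.68 CPM in hybrid 1 to 4. Its difference of -4.65 ± 0.85 (-6.42 to -2.87) had an adjusted p of 0.0609. The hybrid values rest on 151, 14, 11 and 18 counts. DESeq2 called Rgs16 (adjusted p = 2.61e-05), while edgeR with the lane as a block in 16 libraries did not (0.0845). With 1 library left out, Rgs16 was called in 1 of 8 fits, without hybrid 1 (-6.10, 0.0177), and adjusted p reached 0.368 without hybrid 2 (edgeR).

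Slc25a25 (2:32414487-32451445, minus strand), a mitochondrial carrier of ATP-Mg and phosphate, was at 102, 108, 119 and 112 CPM in combination 1 to 4 and at 290, 277, 310 and 342 CPM in hybrid 1 to 4. Each hybrid library was above each combination library, and the spread within groups was small. The difference was 1.47 ± 0.28 (0.89 to 2.04, adjusted p = 0.0726), 2.77-fold in mean level. Slc25a25 was called by DESeq2 (adjusted p = 0.000223) and in the 8 libraries alone (edgeR, 0.000287). By edgeR it was also called in all groups but the controls (0.00604) and with the lane as a block in the 8 libraries (0.00624). It was not called with the lane as a block in 16 libraries (0.186, edgeR). Not called with all 20 libraries, it was also not called in any of the 8 fits with 1 library left out (0.157 to 0.361, edgeR). The difference in those fits ran from 1.42 to 1.52.

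The fit of the 8 libraries alone takes its spread from the groups compared and not from the wider controls. It called 16 of 12414 genes (0.129%), 15 of which are named here after their values were seen. With the lane as a block in the same 8 libraries, 12 of the 16 stayed called, and Foxq1 (adjusted p = 0.0567), Aatk (0.0576), Camkk1 (0.0693) and Aox3 (0.0699) did not (edgeR). Beside Arrdc3, 8430408G22Rik, Gprin3, Rgs16 and Slc25a25, the lower genes were Cited2, a co-regulator of CBP and p300, Fzd8, a Wnt receptor, Ip6k2, an inositol hexakisphosphate kinase, Hdac5, a histone deacetylase that fasting signals move into the nucleus, Foxq1, a forkhead factor, Aox3, an aldehyde oxidase, Camkk1, a calcium-dependent kinase kinase, and Aatk, a membrane kinase. The other higher genes were Pde10a, a phosphodiesterase that breaks down cAMP and cGMP, and Tuba8, an alpha tubulin.

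Cited2 was at 71.1, 80.7, 80.2 and 77.1 CPM in combination 1 to 4 and at 34.1, 34.9, 40.4 and 40.2 CPM in hybrid 1 to 4. The 2 groups were tight and apart, with an adjusted p of 0.00248 in the 8 libraries and 0.196 in all 20 (edgeR). Mean Cited2 levels were 44.6 CPM in control, 34.5 in glucagon and 42.7 in T3, so the hybrid lay among these and the combination above them. Pde10a (17:8525372-8986648, plus strand) was at 14.9, 8.22, 5.01 and 11.0 CPM in combination 1 to 4 and at 28.5, 51.0, 27.1 and 49.9 CPM in hybrid 1 to 4. Its adjusted p was 0.0368 in the 8 libraries and 0.394 in all 20 (edgeR). Fzd8 ran from 34.0 to 41.4 CPM in the combination and from 12.3 to 21.9 in the hybrid. Its means were 16.0 CPM in control, 15.1 in glucagon and 38.3 in T3. Hdac5 ran from 71.7 to 107 CPM in the combination and from 37.0 to 52.0 in the hybrid, and was called with the lane as a block in 16 libraries (adjusted p = 0.0402). Camkk1 was the lowest of the 15 in level, at 3.02 to 4.79 CPM in the combination and 0.767 to 1.62 in the hybrid, the latter on 14 to 24 counts. All 15 genes had no overlap between groups and moved the same way in 4 of 4 lanes. These genes were picked by a test of the same 8 libraries, so neither trait is further support for them. Over all genes tested, the groups did not overlap for 943 (7.31%).

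**Figure D2:**
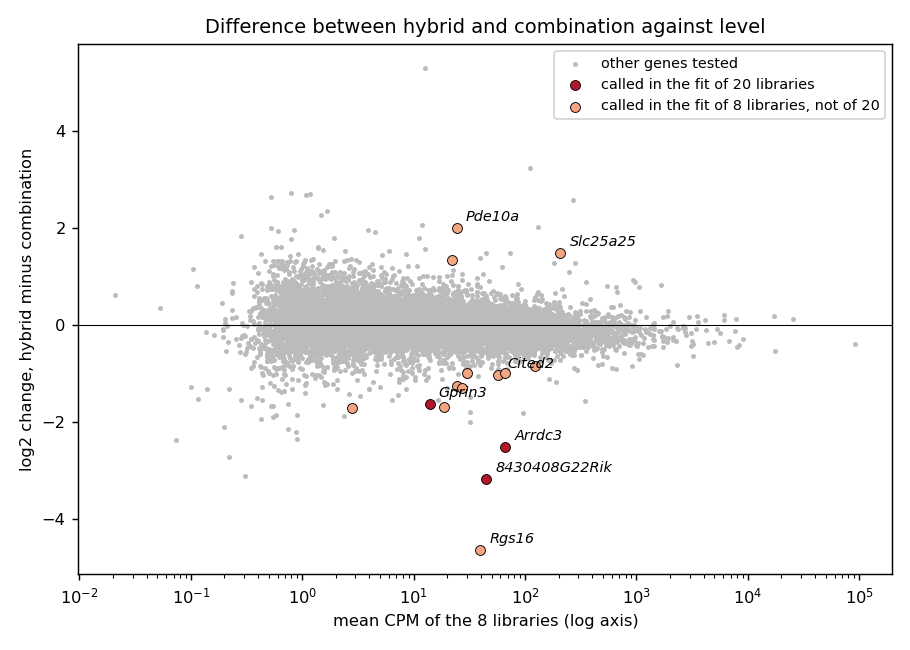
Log2 change of hybrid minus combination (vertical axis) against mean CPM of the 8 libraries (log axis), 1 point per gene tested, the few genes not reported here left out. Arrdc3, 8430408G22Rik and Gprin3, called with all 20 libraries (dark red), lie between -3.18 and -1.64, and the 12 others called in the 8 libraries alone (orange) lie on both sides of 0, with Rgs16 lowest at -4.65.

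The size of difference that the data leave was taken from the intervals. Of 12905 genes with an interval, 9678 (74.99%) had it wholly within log2 -1 to 1, that is, a change of at most 1 log2 unit either way. Among the 5191 genes at 20 CPM or more in both groups there were 4807 such genes (92.6%). In the 8 libraries alone there were 10411 of 12414 (83.9%). The median absolute difference was 0.18 log2 units and 264 genes differed by more than 1. For 3227 genes, the called ones included, the interval reached beyond this bound.

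Each hormone's own effect on the genes was read in the control, glucagon and T3 libraries, none of which is in the compared groups, though all 20 share the estimate of spread. Glucagon against control lowered 4 of the 4 called genes, against 11.9% of all genes tested. The changes with glucagon were -4.35 ± 0.33 for Arrdc3 (adjusted p = 1.57e-08), -4.90 ± 0.49 for 8430408G22Rik (5.48e-07) and -2.07 ± 0.25 for Gprin3 (6.16e-06), all by edgeR. T3 against control lowered 2 of the 4, against 10.6% of all genes: Arrdc3 (-0.99 ± 0.29, adjusted p = 0.0231) and 8430408G22Rik (-1.24 ± 0.42, 0.0464). Gprin3 (-0.38 ± 0.24) did not pass the test with T3. All 4 were higher in T3 than in glucagon, against 16.4% of all genes. The T3 libraries ran in another lane, so hormone and lane cannot be told apart in the last 2 contrasts.

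Wider sets of genes were read in the same way. Of all genes tested, glucagon lowered 11.9% and raised 9.23%, and T3 lowered 10.6% and raised 7.31%. Of the 13 genes lower with the hybrid in the fit of 8 libraries, glucagon lowered 8 (61.5%) and raised 0. T3 raised 3 of the 13 (Aatk, Fzd8 and Hdac5) and lowered 3 (23.1% each). Aatk rose by 1.95 ± 0.43 with T3 (adjusted p = 0.00451), Fzd8 by 1.26 ± 0.31 (0.00868) and Hdac5 by 0.61 ± 0.20 (0.0414), by edgeR. Aatk (-0.53 ± 0.42) and Fzd8 (-0.08 ± 0.31) did not pass the test with glucagon, whereas Hdac5 fell (-0.63 ± 0.20, 0.0313). Of the 3 higher genes, glucagon raised Pde10a (2.38 ± 0.53, adjusted p = 0.00333) and Slc25a25 (2.16 ± 0.28, 1.39e-05), and T3 changed 0. Of the 487 genes lower at an unadjusted p under 0.05, glucagon lowered 132 (27.1%) and raised 20 (4.11%). Of the 404 higher, it raised 101 (25%), against 9.23% of all genes, and lowered 52 (12.9%). With T3, 61 of the 487 rose (12.5%, against 7.31% of all genes) and 67 fell (13.8%), and of the 404, 23 rose (5.69%) and 39 fell (9.65%).

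**Figure D3:**
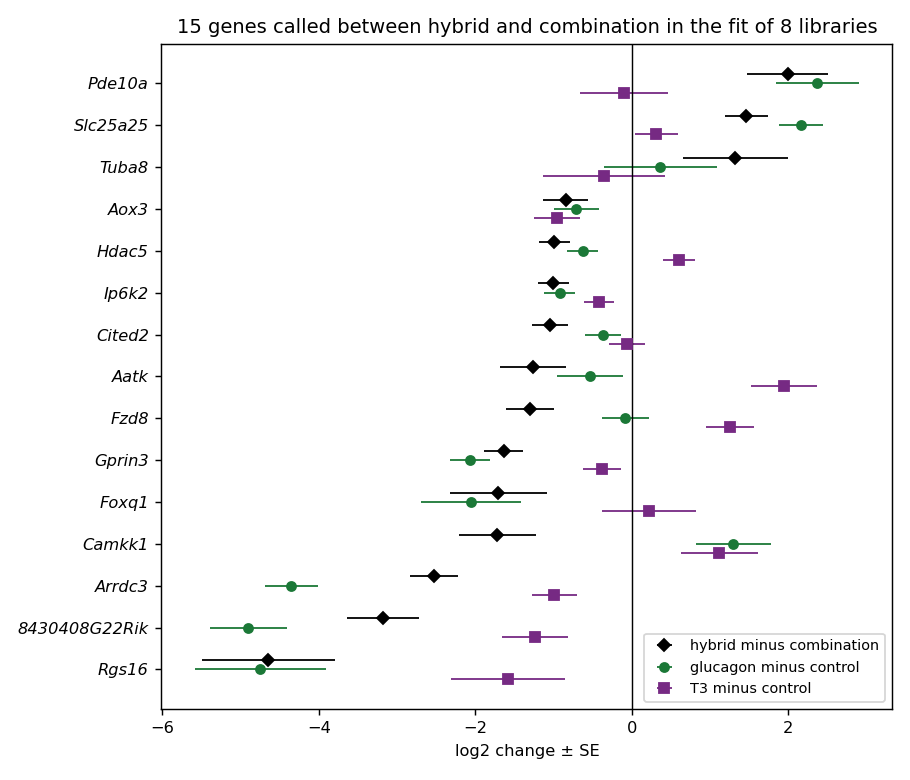
Log2 change ± SE of 15 genes called in the fit of 8 libraries, for hybrid minus combination (diamonds), glucagon minus control (circles) and T3 minus control (squares), from the fit of all 20 libraries. Glucagon points lie left of 0 for Arrdc3, 8430408G22Rik, Gprin3 and Rgs16 and right of 0 for Pde10a and Slc25a25. Camkk1, lower with the hybrid, lies right of 0 with glucagon (1.30 ± 0.48), without passing the test by edgeR.

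Among receptors and carriers of the 2 hormones, 0 of 26 tested genes were called by edgeR, 1 was higher and 1 lower at an unadjusted p under 0.05, and DESeq2 called 0. The median log2 difference was -0.06, against 0.01 over all genes. Gcgr was at 297, 299, 438 and 289 CPM in combination 1 to 4 and at 242, 145, 225 and 245 CPM in hybrid 1 to 4. The groups did not overlap, and the difference was -0.63 (-1.10 to -0.16, unadjusted p = 0.0114, adjusted p = 0.651). Thrb was at 12.5 to 17.1 CPM in the combination and 12.5 to 15.2 in the hybrid, a difference of -0.12 (-0.51 to 0.28). Thra differed by -0.23 (-0.66 to 0.20).

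The cAMP-CREB targets held 1 gene of 21 called by edgeR and by DESeq2, Arrdc3, which glucagon lowered in this study although the list gathers genes raised by cAMP. At an unadjusted p under 0.05, 4 were higher and 2 lower, and the median was 0.21, while the list's median change with glucagon was 2.09. Ppargc1a, a coactivator of gluconeogenic genes, was at 16.9, 15.3, 11.5 and 12.7 CPM in combination 1 to 4 and at 18.0, 25.5, 19.5 and 18.7 CPM in hybrid 1 to 4, a difference of 0.53 (0.15 to 0.91, adjusted p = 0.626). Both groups were far below the glucagon mean of 178 CPM. Sik1, a kinase that restrains CREB coactivators, was at 408 to 559 CPM in the combination and at 663 to 1078 in the hybrid, a difference of 0.77 (0.16 to 1.38, adjusted p = 0.651), beside 622 CPM with glucagon. Nr4a1, an orphan nuclear receptor, was at 6.46 ± 1.73 CPM in the combination and 8.24 ± 3.49 in the hybrid (SD, n = 4), against 133 with glucagon.

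In the list of thyroid hormone responsive genes, 0 of 21 were called by edgeR and by DESeq2, 1 was higher and 1 lower at an unadjusted p under 0.05, and the median was -0.05. For 15 of the 21 (71.4%) the interval lay within 1 log2 unit either way, against 74.99% of all genes. Dio1, the deiodinase that T3 induces, was at 489, 501, 511 and 390 CPM in combination 1 to 4 and at 506, 393, 395 and 301 CPM in hybrid 1 to 4, against a control mean of 105. The groups overlapped, with a difference of -0.25 (-0.87 to 0.38). Thrsp, a lipogenic protein, differed by -0.83 (-2.00 to 0.34) and Klf9, a Krüppel-like factor, by 0.13 (-0.42 to 0.67). Ttbk1 and Sspo were put in the list with their rise under T3 in these data known. Ttbk1, a tau tubulin kinase, was at 17.3 to 21.4 CPM in the combination, 8.92 to 16.5 in the hybrid and 1.72 on average in control, a difference between treatments of -0.60 (-1.25 to 0.04). Sspo, a subcommissural organ spondin, differed by -0.84 (-1.71 to 0.02), which became -0.51 without hybrid 2 and -1.42 without hybrid 3.

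Of the gluconeogenesis genes, 0 of 18 were called by edgeR, and 3 were higher and 2 lower at an unadjusted p under 0.05, with a median of -0.05. G6pc, the phosphatase that releases glucose, was at 527, 854, 618 and 737 CPM in combination 1 to 4 and at 1485, 1237, 1196 and 1144 CPM in hybrid 1 to 4. The hybrid was above the combination in all libraries, and glucagon alone gave 2060 ± 466 CPM (SD, n = 4). The difference was 0.89 ± 0.22 (0.42 to 1.35), with an adjusted p of 0.337 by edgeR and 0.0343 by DESeq2, which called it. Pck1, which makes phosphoenolpyruvate, was at 828 to 1532 CPM in the combination and at 1746 to 2635 in the hybrid, a difference of 0.81 (0.24 to 1.39, adjusted p = 0.612), and again the groups did not overlap. Slc37a4, the glucose-6-phosphate carrier of the same pathway, differed the other way, by -0.60 (-1.14 to -0.06).

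Genes of glucose uptake and of the response to carbohydrate were read next. Slc2a2, the glucose transporter of hepatocytes, was at 108, 110, 105 and 108 CPM in combination 1 to 4 and at 77.6, 58.0, 86.2 and 77.9 CPM in hybrid 1 to 4. The groups did not overlap, and the difference was -0.52 (-0.997 to -0.05, adjusted p = 0.700). The carbohydrate response genes of the factor ChREBP held 0 called by edgeR of 16, 3 lower and 0 higher at an unadjusted p under 0.05, and DESeq2 called 1, Rgs16. Mlxipl, which encodes ChREBP, was at 602, 724, 1339 and 731 CPM in combination 1 to 4 and at 472, 241, 600 and 499 CPM in hybrid 1 to 4, a difference of -0.91 (-1.62 to -0.19, adjusted p = 0.651) that became -0.59 without combination 3. Txnip, a thioredoxin-binding target of ChREBP, differed by -0.50 (-0.92 to -0.07).

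The regulators of G protein signalling held Gprin3 as the 1 gene of 20 called by edgeR, and DESeq2 called Gprin3 and Rgs16. At an unadjusted p under 0.05, 3 were higher and 2 lower, the lower ones being Gprin3 and Rgs16. Rgs5, a regulator found in pericytes, differed by 0.72 (0.10 to 1.34) and Gnaq, a G protein alpha subunit, by 0.31 (0.01 to 0.61), the latter with no overlap between groups. Without hybrid 2 the Rgs5 difference was 0.47.

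**Figure D4:**
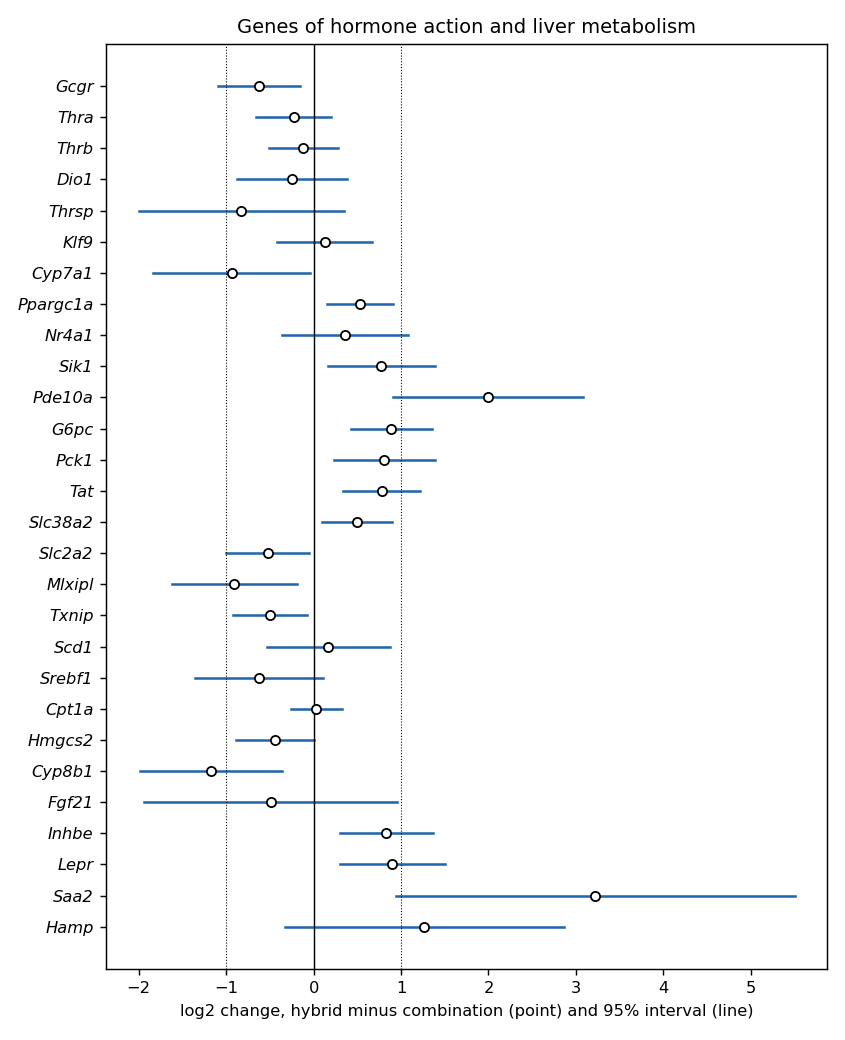
Log2 change of hybrid minus combination (points) with its 95% interval (lines) for 28 genes of hormone action and liver metabolism, with dotted lines at -1 and 1. None of these genes was called by edgeR with all 20 libraries, and the intervals of Thrb, Cpt1a and Dio1 lie within the dotted lines.

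Amino acid breakdown and the urea cycle held 0 of 38 called by edgeR and by DESeq2, with 2 higher and 4 lower at an unadjusted p under 0.05 and a median of -0.07. Tat, the tyrosine aminotransferase that glucagon raised to 5448 CPM, was at 716, 986, 646 and 784 CPM in combination 1 to 4 and at 1187, 1811, 1495 and 874 CPM in hybrid 1 to 4. The groups overlapped at hybrid 4 and combination 2, and the difference was 0.78 (0.34 to 1.22, adjusted p = 0.464). Slc38a2, a carrier of neutral amino acids, differed by 0.50 (0.10 to 0.90), and Ido2, an enzyme of tryptophan breakdown, by -0.83 (-1.41 to -0.25).

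The lipid lists held 0 called genes by edgeR and by DESeq2: 0 of 23 in cholesterol synthesis and uptake (1 lower at an unadjusted p under 0.05, median -0.02), 0 of 30 in fatty acid and triglyceride synthesis (1 higher and 1 lower, -0.12) and 0 of 28 in fatty acid oxidation and ketogenesis (1 lower, -0.15). For 21 of the 23 cholesterol genes (91.3%) and 24 of the 28 oxidation genes (85.7%) the interval lay within 1 log2 unit either way. The share over all genes was 74.99%. Cpt1a, the entry step of mitochondrial oxidation, was at 486 to 633 CPM in the combination and 540 to 677 in the hybrid, a difference of 0.03 (-0.26 to 0.32). Scd1, which desaturates fatty acids, was at 10772 to 23721 CPM in the combination and 9925 to 26475 in the hybrid, a difference of 0.17 (-0.53 to 0.87).

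Bile acid genes had the lowest median of the 31 function lists, -0.38, with 0 of 26 called by edgeR and by DESeq2 and 4 lower and 0 higher at an unadjusted p under 0.05. Medians were also below 0 for glycolysis and glycogen genes (-0.34) and for hepatocyte markers (-0.25). They were above 0 for interferon-induced genes (0.48) and macrophage markers (0.27), and the cause was not tested. Cyp7a1, whose enzyme sets the pace at which bile acids are made, was at 258, 541, 409 and 321 CPM in combination 1 to 4 and at 241, 223, 208 and 125 CPM in hybrid 1 to 4, a difference of -0.94 (-1.84 to -0.04, adjusted p = 0.711). Cyp8b1, which sets the share of cholic acid, was at 184, 329, 315 and 232 CPM in combination 1 to 4 and at 157, 85.1, 122 and 105 CPM in hybrid 1 to 4, a difference of -1.18 (-1.99 to -0.36, adjusted p = 0.612). Neither gene overlapped between the groups. Mean levels in control, glucagon and T3 were 95.5, 20.1 and 220 CPM for Cyp7a1 and 349, 294 and 252 CPM for Cyp8b1. Drug metabolism held 0 of 36 called by edgeR and by DESeq2, with 6 lower and 0 higher at an unadjusted p under 0.05 and a median of -0.32. Aox3 was at 124 to 183 CPM in the combination and 86.6 to 91.4 in the hybrid, a difference of -0.85 (-1.45 to -0.24, adjusted p = 0.612), and was the 1 member called in the 8 libraries alone, though not with the lane as a block there. Members of the Aox, Ugt and Cyp families have close copies, and no source used here says how shared reads were counted.

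Secreted liver hormones and related genes held 0 of 21 called by edgeR and by DESeq2, with 4 higher and 1 lower at an unadjusted p under 0.05 and a median of -0.18. Inhbe, which encodes the activin E subunit, was at 26.1, 33.3, 25.6 and 21.6 CPM in combination 1 to 4 and at 36.8, 51.9, 51.2 and 49.9 CPM in hybrid 1 to 4. The groups did not overlap, and the difference was 0.83 (0.30 to 1.36, adjusted p = 0.612), beside 76.6 CPM in control and 11.9 with glucagon. Lepr, the leptin receptor, differed by 0.90 (0.30 to 1.51), and Fgf21, a fasting hormone, by -0.49 (-1.93 to 0.95), or -0.23 without hybrid 1.

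Of 29 acute phase genes 0 were called by edgeR and by DESeq2, and 2 were higher and 0 lower at an unadjusted p under 0.05, with a median of 0.19. Saa2, a serum amyloid, was at 15.9, 15.6, 32.0 and 22.9 CPM in combination 1 to 4 and at 236, 537, 10.0 and 19.3 CPM in hybrid 1 to 4. Hybrid 1 and hybrid 2 were high and hybrid 3 and hybrid 4 lay within or below the combination, so the difference of 3.22 ± 1.09 rests on 2 libraries (adjusted p = 0.612), and Saa1, a near copy, showed the same 2. Hamp, the iron hormone hepcidin, was at 167, 183, 60.7 and 19.6 CPM in combination 1 to 4 and at 201, 366, 205 and 265 CPM in hybrid 1 to 4. The groups did not overlap, and the difference was 1.27 (-0.32 to 2.86, adjusted p = 0.789). The cell cycle list had the highest median of the 31, 0.50, with 0 of 24 called by edgeR and by DESeq2 and 4 higher and 0 lower at an unadjusted p under 0.05. Birc5, a mitotic survival protein, was at 5.45, 3.19, 1.89 and 4.08 CPM in combination 1 to 4 and at 2.88, 9.03, 8.93 and 9.52 CPM in hybrid 1 to 4, a difference of 1.04 (0.21 to 1.87, adjusted p = 0.651). Hybrid 1 lay within the combination, and the other 3 hybrid libraries above it.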

How the data were processed

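Total RNA of whole liver was made into libraries with a Lexogen kit and counted with HTSeq on mm10, per the labels' protocols and the submitters' processing notes. No source used here names versions, the aligner, the annotation or the strand setting. The deposited values are raw counts per gene symbol. All 13319 symbols reach at least 20 counts in some library, and 12 had turned into dates.

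In R 4.3.3, filterByExpr (minimum count 10, minimum total 15) kept 12907 genes. Counts were scaled by TMM and fitted with edgeR 4.0.16 (quasi-likelihood, limma 3.58.1, 5 group means, 20 libraries, 15 residual and 5.00 prior degrees of freedom). Benjamini-Hochberg adjusted p under 0.05 made a call. DESeq2 1.42.0 was an alternative, with the others given in the closing section, and the fit was tested on simulated data. Log2 CPM used a prior count of 2. The p-values set each difference against the spread between mice, 4 a group, which the main fit estimates over all 5 groups. Depth limits genes of low count.

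The labels put replicate numbers in lanes 1 to 4 in both groups, which pairs the libraries by lane. Deviations from group means of same-numbered libraries correlated at -0.21, 0.092, 0.065 and 0.46. Those of differently numbered libraries ran from -0.35 to 0.31. The value of 0.46 joins hybrid 4 and combination 4, which had the highest skeletal muscle sums of their groups, and its cause was not tested.

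The comparison and the gene lists were chosen with earlier results of these data known. Genes were named by a rule: called genes of at least 20 CPM without overlap, filled up by p where fewer than 6, the 4 members of smallest p in each list described, and a panel of hormone and liver genes. The other genes of the 8-library fit were added after their values were seen. A few genes the rule would name are not reported here. Of the 75 genes named, those added from the 8-library fit included, 75 had a position in GENCODE M21 (matched by symbol). Promoters are from RefSeq (GRCm38.p6), for the 3 called genes described.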

Additional observations from a re-analysis of the deposited data

Results flagged for a closer look

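A single library stood apart from the other 3 of its group in 6 of the 150 sets of 4 values looked at, by a gap test that chance passes in about 1 of 20 sets. Hybrid 2 was low for Gcgr (145 CPM, others 225 to 245). Hybrid 1 was low for Inhbe (36.8, others 49.9 to 51.9) and Birc5 (2.88, others 8.93 to 9.52). Combination 3 was high for Gcgr (438, others 289 to 299). Combination 4 was low for Dio1 (390, others 489 to 511), and combination 1 for Camkk1 (3.02, others 4.52 to 4.79).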

How the results depend on the processing

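With RLE factors and with no filter on low counts, 4 genes were called, 0 higher and 4 lower. The count rose to 28 with DESeq2 (7 higher, 21 lower), 16 in the 8 libraries alone (3 and 13), 31 in all groups but the controls (9 and 22) and 16 without control 2 and glucagon 3 (2 and 14), a setting chosen after seeing the data. These fits kept the 4 called genes. Control 2 and glucagon 3 had the highest skeletal muscle sums of all libraries, and the part of muscle RNA in these counts was not tested. With the lane as a replicate block, 16 libraries gave 4 calls, 3 of them the same genes, and the 8 libraries alone gave 18 calls (5 higher, 13 lower) that held all 4 and 12 of the 16 found there without the block. Leaving out 1 library gave 1 to 5 calls, with 1 to 5 lower and 0 higher: 1 without hybrid 3 or hybrid 4, 2 without hybrid 2. Glucagon lowered 4 of the 4 genes called and 8 of the 13 lower in the 8-library fit (61.5%). Of the 487 lower at an unadjusted p under 0.05, it lowered 132 (27.1%), against 11.9% of all genes tested. With 1 library left out, directions turned for Klf9 (-0.050 to 0.29, lowest without combination 3), Scd1 (-0.066 to 0.42, lowest without hybrid 1) and Cpt1a (-0.035 to 0.087, below 0 without combination 3 and without hybrid 4), none of them called. The cause of these differences was not tested.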
